A study of Homo sapiens with 6 samples.

Results

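The collagen genes were taken as every row of the gene count table whose symbol has the form COL, a number, A and a number, such as COL1A1. This gave 44 genes of the 60676 in the table. The rule uses the symbol alone, but it was set with earlier results of these data known. Rows that add a suffix to such a symbol, such as antisense RNAs and pseudogenes, were not members. The 44 genes were compared between TC71 cells with EHD1 knocked down (EHD1-KD) and control TC71 cells, by the kind of structure that each collagen is known to form.

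Collagens are extracellular matrix proteins whose polypeptide chains, each encoded by its own COL gene, wind together into a triple helix. Fibrillar collagens give tissues their tensile strength, FACIT collagens (fibril-associated collagens with interrupted triple helices) decorate those fibrils, type IV forms the sheets of basement membranes, type VI forms beaded filaments around cells and type VII anchors epithelium to the matrix beneath. Chains are hydroxylated and folded in the endoplasmic reticulum, secreted, trimmed of their propeptides and crosslinked outside the cell. In solid tumors fibroblasts are the best known source of this matrix. Ewing sarcoma (EWS) is a tumor of bone and soft tissue driven by fusions such as EWS-FLI1.

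TC71 is an established human EWS cell line. It was engineered with a lentiviral, doxycycline (Dox)-inducible vector that encodes GFP together with an shRNA, which either targeted EHD1 (shEHD1) or, in the control line, no gene (shNTC). EHD1 is a protein that regulates the recycling of membrane receptors from endosomes. Both lines were puromycin-selected populations rather than clones, and both received 0.5 µg/ml Dox for 3 days, so that Dox, vector and selection were shared by the 2 groups. There were 3 libraries of shNTC+Dox and 3 of shEHD1+Dox. The labels do not state that the 3 libraries of a group came from separate cultures, so the p-values measure the spread between these libraries, which may be technical. The sources used here do not state which EHD1 shRNA sequence these cells carried, and 1 cell line with 1 knockdown line does not show how other lines behave. Cells without Dox were not analysed here.

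EHD1 itself fell, with 713, 775 and 589 reads in the shNTC+Dox replicates against 215, 175 and 290 in shEHD1+Dox (log2 fold change -1.76, SE 0.12, edgeR adjusted p = 0.000136). The libraries held between 22711235 and 30582187 counts. shNTC+Dox replicate 3 stood apart from its group: its counts differed from those of replicates 1 and 2 by a chi-square per degree of freedom of 26.5 and 28.1, against 5.61 between replicates 1 and 2. Collagen results whose call, or whose value by over 1.5 times, changes without this library are given both ways. All 9 markers of EWS listed were detected, among them NKX2-2, NR0B1 and the fusion partner FLI1. Their summed level was 2703 to 2794 CPM (counts scaled to the TMM-normalized library size) in shNTC+Dox and 2512 to 2632 in shEHD1+Dox. Of these, CD99 rose (log2 fold change 0.33, edgeR adjusted p = 0.0293), and STEAP1 (-0.43, adjusted p = 0.00443) and BCL11B (-0.75, adjusted p = 0.0012) fell. The other markers of EWS did not pass an adjusted p of 0.05, and 17.3% of all genes tested passed it.

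Of the 44 collagen genes, 11 had no read in any library. These were both major basement membrane chains, COL4A1 and COL4A2, along with COL6A5, COL9A2, COL11A1, COL15A1, COL17A1, COL20A1, COL22A1, COL23A1 and COL26A1. A count of 0 allows a level of up to 0.0969 to 0.134 CPM, depending on the library (3 counts, counting error only). A further 5 genes, COL4A6, COL8A1, COL8A2, COL14A1 and COL28A1, had at most 3 counts in any library, and another 5, COL4A3, COL4A5, COL6A6, COL9A1 and COL10A1, had at most 16 counts in any library and fell short of 10 counts in 3 libraries. The remaining 23 were tested. A gene that is low in shNTC+Dox can enter this group through its level in shEHD1+Dox alone, so the 23 are not a sample of all collagen genes.

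With reads divided by exon length (RPKM, counts per kilobase of annotated exon and per CPM unit of library size), TC71 cells made mainly COL5A2, COL3A1, COL16A1 and COL21A1 transcripts. Their levels in shNTC+Dox were 44.4, 28.7, 17.8 and 12.7 RPKM, followed by 4.67 for COL19A1, 2.49 for COL6A1, 2.05 for COL1A1 and 1.58 for COL6A2. In shEHD1+Dox the order at the top turned, with COL3A1 at 53.1 and COL5A2 at 48.5 RPKM. COL1A2, the partner of COL1A1 in type I collagen, was almost unread, with 5, 13 and 0 counts in shNTC+Dox against 12, 0 and 20 in shEHD1+Dox. COL5A2, COL3A1, COL16A1, COL21A1 and COL19A1 together took 88.3% to 90.5% of all collagen counts in each library. With the longest transcript in place of all exons as length, COL16A1 came to 30.4 and COL21A1 to 21.1 RPKM, and COL5A2 remained the highest at 47.6. The order below COL19A1 changed, as COL13A1 went from 1.16 to 3.93 RPKM. This put it above COL6A1 at 3.28, COL1A1 at 3.12 and COL6A2 at 2.45.

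The sum of all collagen genes was higher in shEHD1+Dox. It was 974, 981 and 808 CPM in shNTC+Dox against 1106, 1207 and 1142 CPM in shEHD1+Dox, a ratio of group means of 1.25. The groups did not overlap, and the ratio was 1.18 without shNTC+Dox replicate 3. Most of the gain lay in COL3A1. Without it the sums were 773, 771 and 638 CPM in shNTC+Dox against 772, 816 and 791 CPM in shEHD1+Dox, and the groups overlapped. FACIT collagens summed to 322, 315 and 287 CPM against 302, 334 and 317 CPM and overlapped too, while the fibrillar sum went from 592, 611 and 481 to 733, 811 and 747 CPM. In these bulk libraries a change in the share of cells that express a collagen and a change in its RNA per cell cannot be told apart.

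**Figure D1:**
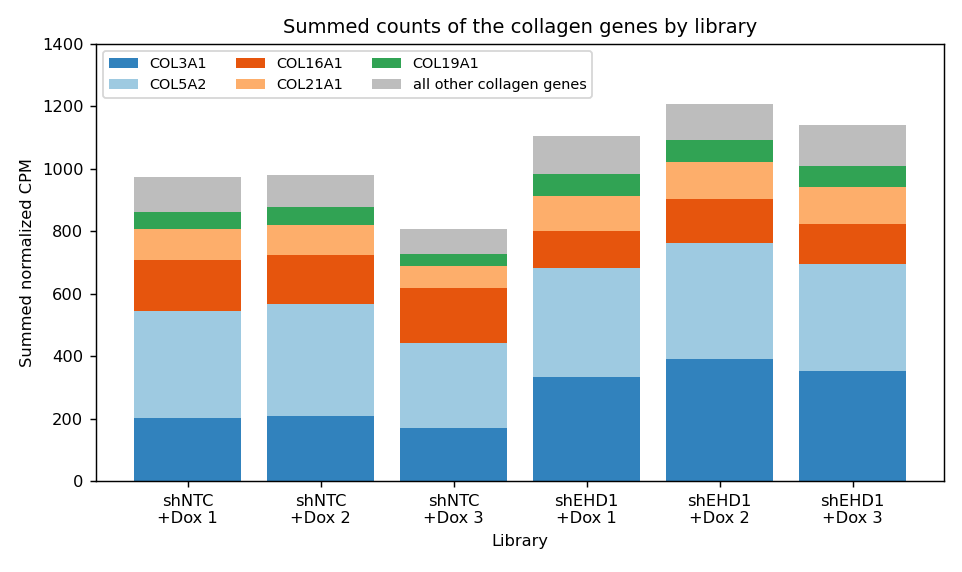
Summed TMM-normalized CPM of the 44 collagen genes in each of the 6 libraries, as stacked bars with the 5 genes that hold most counts shown separately. The shEHD1+Dox bars reach 1106 to 1207 CPM and the shNTC+Dox bars 808 to 981 CPM, and the dark blue COL3A1 segment is larger in every shEHD1+Dox library.

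At an edgeR adjusted p under 0.05 and a change of at least 2-fold, 2 of the 23 tested collagen genes were higher in shEHD1+Dox (COL6A3 and COL6A2) and 2 were lower (COL7A1 and COL5A3). Over all 16785 genes tested, 1.08% were called higher and 1.74% lower by this rule. With any fold change, 4 collagen genes were higher, COL3A1 and COL5A1 being added, and 4 were lower, COL16A1 and COL13A1 being added. This was 34.8% of the 23, against 17.3% of all genes, which divided into 8.59% higher and 8.75% lower. The other 15 collagen genes did not pass. When a change of at least 2-fold was itself the hypothesis tested (edgeR glmTreat), COL6A3 alone of the 23 passed, and the alternatives counted below for single genes leave this stricter test aside. Of all 23, 17 had a log2 fold change above 0, as did 50.1% of all genes tested. The median of the 23 was 0.40, where the median of all genes tested was 0.0008. For 16 of the 23 (69.6%), the libraries of the groups did not overlap, 10 with shEHD1+Dox above and 6 with it below, against 39.3% of all genes. Each of the 23 reached 10 counts in at least 1 library of each group. However, COL2A1, COL12A1 and COL1A2 did not reach it in every shNTC+Dox library and needed shEHD1+Dox libraries to pass the filter. COL2A1 and COL12A1 are among the 10 with shEHD1+Dox above. COL11A2 and COL1A2 did not reach it in every shEHD1+Dox library and needed shNTC+Dox libraries. The collagen rule was also set with earlier results known. These counts therefore describe the 23 and do not set collagens apart from other genes.

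**Figure D2:**
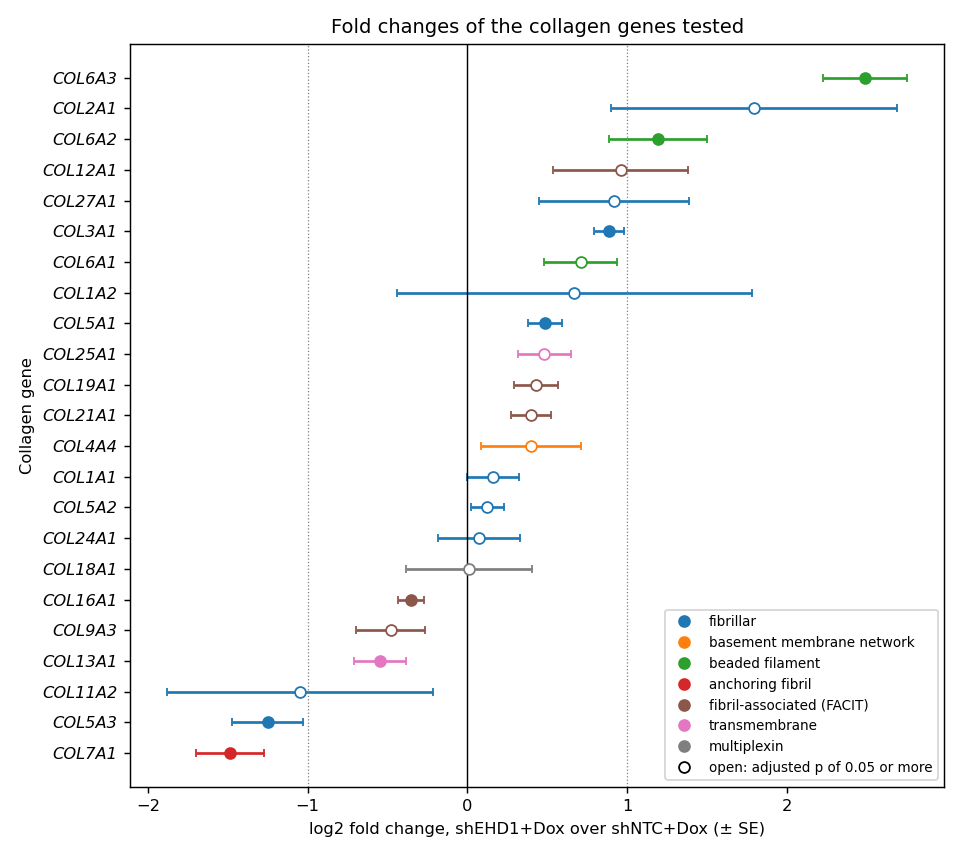
Log2 fold change (shEHD1+Dox over shNTC+Dox) of the 23 collagen genes tested, with SE bars, colored by the kind of structure and ordered by size; filled points passed an edgeR adjusted p of 0.05 and dotted lines mark 2-fold. The 4 filled points on the right are COL6A3, COL6A2, COL3A1 and COL5A1, and the 4 on the left are COL16A1, COL13A1, COL5A3 and COL7A1.

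The largest rise was in type VI collagen, in COL6A3. The type VI filament is built from chains of COL6A1, COL6A2 and COL6A3, and COL6A5 and COL6A6 encode alternatives to the COL6A3 chain. COL6A3 (chromosome 2 from 237324003 to 237414328, minus strand, hg38) had 20, 36 and 16 counts in shNTC+Dox against 140, 122 and 181 in shEHD1+Dox, or 0.93 ± 0.33 against 5.25 ± 0.52 CPM (SD, n = 3 each). Every shEHD1+Dox library lay far above every control. The log2 fold change was 2.49 (SE 0.27, edgeR adjusted p = 0.000694), the largest of the 23. It passed under each of 12 alternative analyses, with values from 2.34 to 2.82.

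COL6A2 (chromosome 21 from 46098112 to 46132848, plus strand) rose from 279, 288 and 96 counts to 575, 425 and 636, or from 8.43 ± 3.58 to 19.4 ± 1.74 CPM. This gave a log2 fold change of 1.19 (SE 0.31, edgeR adjusted p = 0.0361). The groups did not overlap, but the low value of shNTC+Dox replicate 3 widened the spread. Without that library the change was 0.88 (edgeR adjusted p = 0.000711), under 2-fold but clearer. The call was lost without a filter on low counts (adjusted p = 0.0689), without shNTC+Dox replicate 2 (0.0544) and without shEHD1+Dox replicate 1, 2 or 3 (0.107, 0.0674 and 0.102), and also with the replicate number as a block (0.0568).

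COL6A1 (chromosome 21 from 45981770 to 46005050), 93061 bases upstream of COL6A2 on the same strand, had 419, 447 and 207 counts in shNTC+Dox against 623, 454 and 842 in shEHD1+Dox. Its CPM of 13.8 ± 3.91 and 22.6 ± 4.36 gave a log2 fold change of 0.71 (SE 0.23) that did not pass (edgeR adjusted p = 0.0681). It passed without shNTC+Dox replicate 3, at 0.49 (adjusted p = 0.0452), and with the Wald test of DESeq2 (adjusted p = 0.00976). COL6A5 was at 0, and COL6A6 had 5, 0 and 2 counts in shNTC+Dox and none in shEHD1+Dox. The 5 genes of type VI together summed to 27.5, 27.9 and 14.4 CPM in shNTC+Dox against 47.0, 40.9 and 53.6 CPM in shEHD1+Dox.

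The balance of the type VI chains was compared within each library. Per exon length, the ratio of COL6A3 to COL6A1 was 0.0123, 0.0207 and 0.0199 in the controls against 0.0578, 0.0691 and 0.0553 with EHD1-KD, a difference of 1.82 on the log2 scale. The ratio of COL6A2 to COL6A1 was 0.691, 0.669 and 0.481 against 0.958, 0.972 and 0.784, a difference of 0.57. Neither ratio overlapped between the groups, and each had an exact two-sided permutation p of 0.1, the smallest that 3 libraries against 3 can give. COL6A3 remained the scarcest of the 3 transcripts in all 6 libraries.

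**Figure D3:**
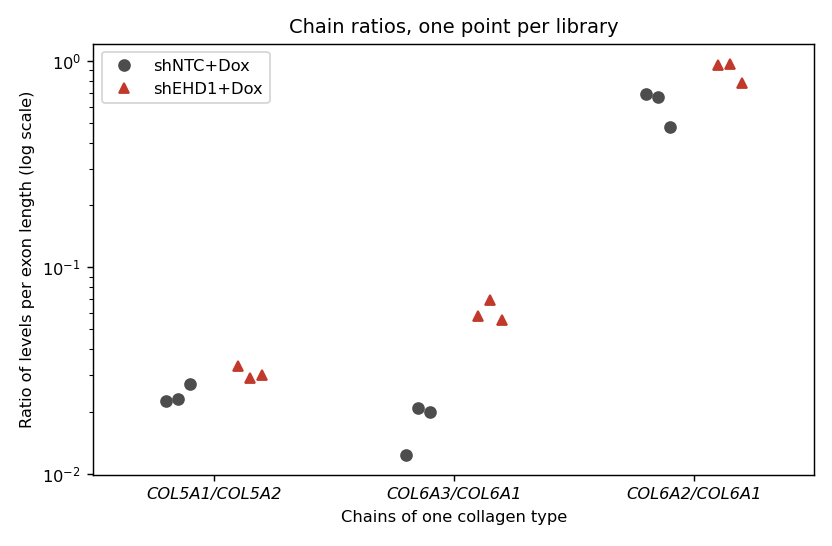
Ratio of the levels per exon length of 2 chains of a collagen type in each library, on a log axis, with circles for shNTC+Dox and triangles for shEHD1+Dox. For all 3 ratios the triangles lie above the circles, with COL6A3 to COL6A1 moving from at most 0.0207 to at least 0.0553 and staying far below 1.

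The bases before the start of the 4 genes called with a change of at least 2-fold are printed here. They were chosen after their values were seen, because these are the genes on which the comparison turns. The sequences come from RefSeq (GRCh38.p14), which had an entry for 32 of the 44 collagen genes in the table used. Each stretch runs 5′ to 3′ toward the gene, and those of COL6A2, COL7A1 and COL5A3 end at the start. For the others 250 bases are given. The RefSeq start of COL6A3 lies 164 bases inside the annotated gene, so the 86 bases outside that gene are given and the 164 next to the RefSeq start are not shown. Capitals mark matches, on either strand, to the TATA box TATAAA, the CCAAT box CCAAT or the GC box GGGCGG. The words GGAAGGAA, a pair of the GGAA repeats that the EWS-FLI1 fusion is known to bind, and TGANTCA, the AP-1 site, were searched too. None of these words contains another.
COL6A2, chr21:46097862-46098111, plus strand: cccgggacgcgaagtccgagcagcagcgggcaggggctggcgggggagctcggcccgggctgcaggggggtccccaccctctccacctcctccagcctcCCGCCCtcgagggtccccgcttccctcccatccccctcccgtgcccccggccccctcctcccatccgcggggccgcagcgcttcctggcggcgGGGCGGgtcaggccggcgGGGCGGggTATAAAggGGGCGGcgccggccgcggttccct
COL6A3, chr2:237414329-237414414, minus strand: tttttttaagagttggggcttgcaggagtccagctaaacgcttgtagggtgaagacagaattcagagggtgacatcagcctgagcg
COL7A1, chr3:48595330-48595579, minus strand: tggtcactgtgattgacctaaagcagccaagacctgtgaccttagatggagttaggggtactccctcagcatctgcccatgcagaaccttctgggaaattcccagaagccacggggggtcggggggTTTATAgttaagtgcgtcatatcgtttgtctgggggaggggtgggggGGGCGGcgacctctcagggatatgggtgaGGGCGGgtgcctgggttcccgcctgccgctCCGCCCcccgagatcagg
COL5A3, chr19:10010505-10010754, minus strand: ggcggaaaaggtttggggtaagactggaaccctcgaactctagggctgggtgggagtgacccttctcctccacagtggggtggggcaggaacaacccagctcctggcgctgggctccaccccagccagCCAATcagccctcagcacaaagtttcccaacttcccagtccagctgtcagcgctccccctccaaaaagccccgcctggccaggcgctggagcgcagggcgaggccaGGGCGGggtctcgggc

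The stretches of COL6A2, COL7A1 and COL5A3 each held a GC box or more, and those of COL6A2 and COL7A1 also held TATAAA. COL6A2 had a TATA box from 32 to 27 bases before its start, in the place usual for that element, between GC boxes, and a G+C content of 79.6%. COL7A1 had TATAAA on the other strand from 124 to 119 bases before its start and 3 GC boxes. COL5A3 had a CCAAT box from 122 to 118 and a GC box from 16 to 11 bases before its start. The COL6A3 stretch, shorter and farther from its RefSeq start, held no match. Among all 35116 promoters of 250 bases, 10.7% held TATAAA, 32% CCAAT, 42.6% GGGCGG, 3.06% GGAAGGAA and 6.57% TGANTCA, and the median G+C content was 58%. No window of the 32 collagen genes held GGAAGGAA. These matches describe letters and are not evidence of a bound site.

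Among the fibrillar collagens, 10 of 11 genes were tested, 2 rose and 1 fell, where 8.59% of all genes rose and 8.75% fell. COL3A1 (chromosome 2 from 188974373 to 189012746, plus strand), which forms type III fibrils as a homotrimer, rose from 5307, 5821 and 3814 counts to 9528, 9568 and 10881, or from 194 ± 20.8 to 359 ± 29.0 CPM. Its log2 fold change was 0.89 (SE 0.10, edgeR adjusted p = 0.000732), just under 2-fold. The groups were far apart, and all 13 alternatives called it, with values from 0.80 to 0.94. Its neighbor COL5A2, on the opposite strand, lies 19151 bases away, tail to tail with it. COL5A2 had 9048, 9923 and 6100 counts in shNTC+Dox against 9947, 9074 and 10640 in shEHD1+Dox, and the overlapping groups gave a log2 fold change of 0.13 (SE 0.10, edgeR adjusted p = 0.437), which was 0.01 without shNTC+Dox replicate 3 (adjusted p = 0.906).

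Type V collagen regulates the diameter of type I and III fibrils, and its chain genes moved in different directions. COL5A1 (chromosome 9 from 134641803 to 134844843) rose from 311, 346 and 254 counts to 504, 403 and 490, or from 11.9 ± 0.57 to 16.7 ± 0.95 CPM. The log2 fold change was 0.49 (SE 0.10, edgeR adjusted p = 0.0151), and the call was lost without shNTC+Dox replicate 1 (adjusted p = 0.0532) or shEHD1+Dox replicate 1 (0.0705). COL5A3 (chromosome 19 from 9959561 to 10010504) fell from 144, 112 and 83 counts to 59, 45 and 51, or from 4.41 ± 0.93 to 1.85 ± 0.21 CPM. This gave a log2 fold change of -1.25 (SE 0.22, edgeR adjusted p = 0.00682), and it passed under all 13 alternatives, with values from -1.36 to -1.07. The ratio of COL5A1 to COL5A2 per exon length was 0.0225, 0.0229 and 0.0273 in the controls against 0.0332, 0.0291 and 0.0302 with EHD1-KD. It did not overlap, and differed by 0.35 on the log2 scale (exact two-sided permutation p = 0.1, the smallest possible here).

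Of the other fibrillar genes, COL1A1, the main chain of type I collagen, had 596, 512 and 317 counts against 547, 494 and 695, with a log2 fold change of 0.16 (SE 0.16, edgeR adjusted p = 0.539) and overlapping groups. Without shNTC+Dox replicate 3 it was 0.003 (adjusted p = 0.989). COL2A1, the collagen of cartilage, had 39, 54 and 0 counts in shNTC+Dox against 98, 89 and 157 in shEHD1+Dox. All shEHD1+Dox libraries were higher, but the 0 in shNTC+Dox replicate 3 left its log2 fold change at 1.79 with an SE of 0.90 (edgeR adjusted p = 0.230), and without that library it was 1.24 (adjusted p = 0.00770). COL1A2, COL11A2, COL24A1 and COL27A1 had log2 fold changes from -1.05 to 0.92 and adjusted p-values from 0.217 to 0.875. Without shNTC+Dox replicate 3, COL1A2 went from 0.67 to 0.15 (adjusted p = 0.933) and COL24A1 from 0.07 to 0.41 (adjusted p = 0.137). COL11A1 had no reads.

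**Figure D4:**
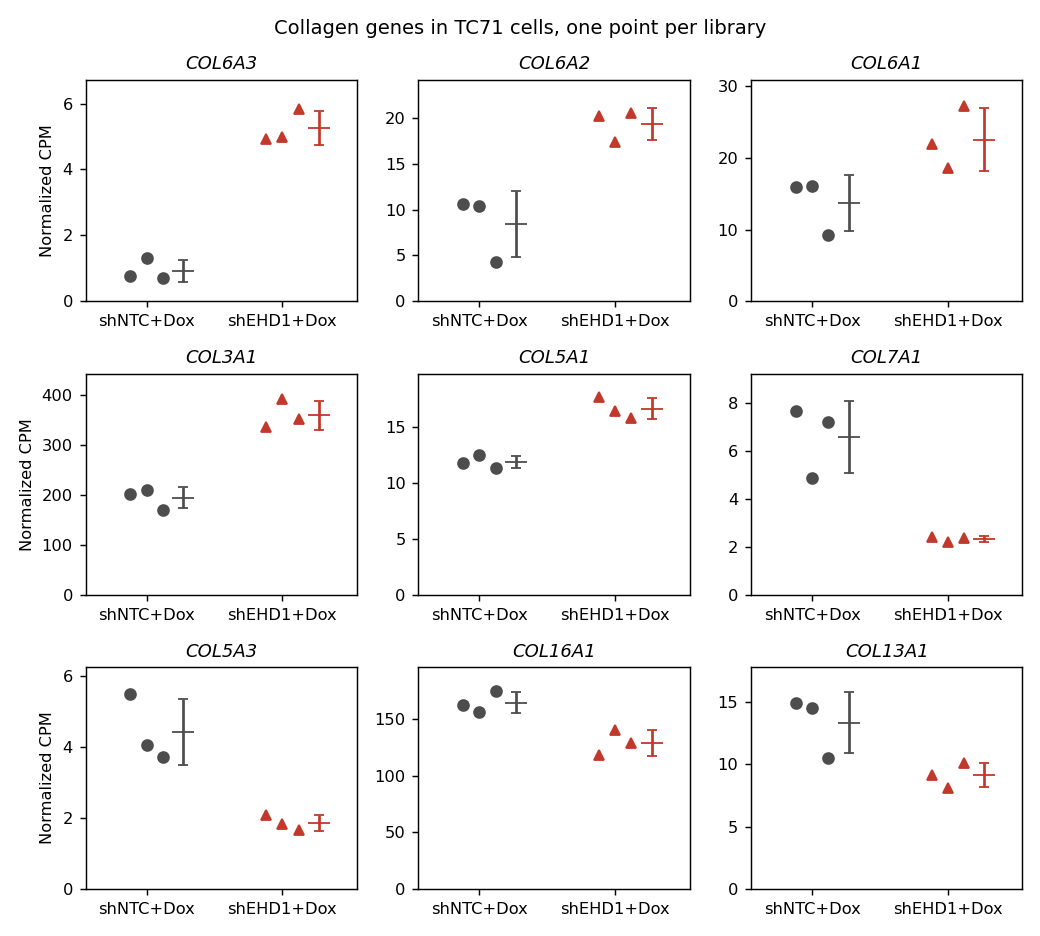
TMM-normalized CPM of 9 collagen genes, 1 point per library, with the mean and SD of the 3 libraries beside each group (circles shNTC+Dox, triangles shEHD1+Dox; each panel has its own axis from 0). The groups do not overlap in any panel; COL6A3 goes from 0.93 to 5.25 CPM and COL7A1 from 6.59 to 2.34 CPM, and shNTC+Dox replicate 3 is the lowest control for 7 of the 9, all but COL7A1 and COL16A1.

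Type VII collagen, whose anchoring fibrils tie the basement membrane of epithelium to the stroma, showed the largest fall that passed the test. COL7A1 (chromosome 3 from 48564073 to 48595329, minus strand) had 202, 135 and 161 counts in shNTC+Dox against 69, 54 and 74 in shEHD1+Dox. This was 6.59 ± 1.50 against 2.34 ± 0.12 CPM, and the highest shEHD1+Dox library stayed below the lowest control. Its log2 fold change was -1.49 (SE 0.21, edgeR adjusted p = 0.00269), and all 13 alternatives called it, with values from -1.67 to -1.36.

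FACIT collagens were the second largest source of collagen reads, and 5 of 10 genes were tested. COL16A1 (chromosome 1 from 31652263 to 31704319), the most abundant of them, fell from 4281, 4313 and 3907 counts to 3361, 3434 and 3974, or from 164.5 ± 9.71 to 128.9 ± 11.2 CPM. The log2 fold change was -0.35 (SE 0.08, edgeR adjusted p = 0.0205). The groups did not overlap on the CPM scale. The call was lost with the replicate number as a block (adjusted p = 0.0512), and without shNTC+Dox replicate 1 (0.0558) or shEHD1+Dox replicate 1 or 3 (0.0869 and 0.0785).

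COL21A1 and COL19A1 lay just outside the threshold on the other side of 0. COL21A1 had 2612, 2643 and 1541 counts against 3161, 2917 and 3649 (log2 fold change 0.40, SE 0.13, edgeR adjusted p = 0.0612). COL19A1 had 1480, 1625 and 881 counts against 1993, 1737 and 2076 (log2 fold change 0.43, SE 0.14, edgeR adjusted p = 0.0614). LMBRD1, on the other strand, shares 85 exon bases with COL19A1, and summed with it the change was 0.26 (adjusted p = 0.135). For COL21A1 and COL19A1 alike, shNTC+Dox replicate 3 was the lowest control. Without that library the changes were smaller and passed, at 0.25 (adjusted p = 0.0174) and 0.27 (0.0132), and DESeq2 also called them (0.0159 and 0.0166). COL12A1 had 7 to 12 counts in shNTC+Dox and 16 to 25 in shEHD1+Dox (log2 fold change 0.96, SE 0.42, edgeR adjusted p = 0.153). COL9A3 had 69 to 112 counts against 50 to 78 (log2 fold change -0.48, SE 0.22, adjusted p = 0.163). TCFL5, on the other strand, shares 155 exon bases with it, and the kit did not mark strand. Summed with TCFL5 the log2 fold change was 0.09, so no direction is given for COL9A3.

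Of the transmembrane collagens, COL13A1 (chromosome 10 from 69801880 to 69964275), found at sites of cell adhesion, fell from 393, 403 and 235 counts to 261, 199 and 312. Its CPM went from 13.3 ± 2.45 to 9.13 ± 0.97, with a log2 fold change of -0.55 (SE 0.16, edgeR adjusted p = 0.0477). The groups did not overlap on the CPM scale, but the call was close to the threshold: it was lost in 8 of 12 alternatives and was clearer without shNTC+Dox replicate 3 (-0.69, adjusted p = 0.00404). The losses came without a filter on low counts (0.0689), without robust estimation (0.0542), with the replicate number as a block (0.111) and without any of the other 5 libraries (0.0883 to 0.142). COL25A1 had 192, 163 and 120 counts against 254, 185 and 292, with a log2 fold change of 0.48 (SE 0.17, edgeR adjusted p = 0.0778). COL17A1 and COL23A1 had no reads.

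Collagens of sheets and networks were nearly silent in these cells. Of the 6 type IV genes, the tested one was COL4A4, with 21, 44 and 38 counts against 54, 44 and 52 (log2 fold change 0.40, SE 0.31, edgeR adjusted p = 0.423). It lies head to head with COL4A3, 170 bases apart on chromosome 2, and COL4A3 had 8, 0 and 0 counts against 13, 0 and 16. COL4A5 and COL4A6, 340 bases apart on the X chromosome, had at most 14 and 1 counts. COL8A1, COL8A2 and COL10A1 of the hexagonal networks had at most 5 counts. COL18A1, a basement membrane proteoglycan core of the multiplexin class, had 31, 18 and 21 counts against 21, 34 and 21 (log2 fold change 0.01, SE 0.40, edgeR adjusted p = 0.991, and 0.02 without shNTC+Dox replicate 3). SLC19A1 shares 1563 exon bases with it, and the summed change of both was -0.42 (adjusted p = 0.216). Of the collagen genes called, COL5A3, COL16A1, COL5A1 and COL7A1 share 270, 117, 54 and 36 exon bases with other genes, and summing the counts of those genes left each call in place, from -1.49 for COL7A1 to 0.49 for COL5A1.

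The machinery that makes and remodels collagen was examined with a list of 79 genes, of which 66 were tested. At an edgeR adjusted p under 0.05, 20 were higher and 5 lower in shEHD1+Dox, or 37.9% of those tested, against 17.3% of all genes. With a change of at least 2-fold, 3 were higher and 2 lower, where 1.08% of all genes were higher and 1.74% lower. The median log2 fold change of the 66 was 0.21, against 0.0008 for all genes. Because the list was chosen with earlier results known, these counts describe its genes and do not set them apart from other genes. Of the 20 rises, 10 were in enzymes, chaperones and cargo factors of the endoplasmic reticulum, and of these P4HA2 alone reached 2-fold. These 10 came from hydroxylation and glycosylation and from folding and secretion, roles that held 16 and 9 of the 66 tested genes. Of the 4 TIMP inhibitors of matrix breakdown, 2 rose and 2 fell.

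Of the 16 genes of hydroxylation and glycosylation, 6 rose and 1 fell, or 43.8% called, against 17.3% of all genes. P4HA2 and P4HA1, the catalytic subunits of the prolyl hydroxylases that stabilize the triple helix, had log2 fold changes of 1.14 (SE 0.12, edgeR adjusted p = 0.000763) and 0.73 (SE 0.08, adjusted p = 0.000687). P4HA2 went from 445, 480 and 294 counts to 1076, 868 and 980, with no overlap. PLOD3, a lysyl hydroxylase that also adds sugars to collagen, rose by 0.66 (SE 0.07, edgeR adjusted p = 0.000815), and TMEM38B, an endoplasmic reticulum cation channel whose loss impairs type I collagen, fell by 0.49 on the log2 scale (adjusted p = 0.0103, and 0.0546 without shEHD1+Dox replicate 3). P4HB, the shared beta subunit, had a log2 fold change of 0.12 (adjusted p = 0.232).

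Of the 9 tested genes of folding and secretion, 4 rose, or 44.4% called, against 17.3% of all genes. SEC24D, a cargo-binding subunit of the COPII coat, rose by 0.58 (SE 0.10, edgeR adjusted p = 0.00671), SERPINH1, the collagen chaperone HSP47, by 0.52 (SE 0.06, adjusted p = 0.00141) and MIA2, a cargo factor at endoplasmic reticulum exit sites, by 0.39 (SE 0.07, adjusted p = 0.00525). The last of the 4, named after its value was seen, was the prolyl isomerase FKBP10 at 0.34 (adjusted p = 0.0284), whose call was lost in 5 of 12 alternatives. CREB3L1, a transcription factor of secretory genes, had no reads. In propeptide removal, PCOLCE2, an enhancer of the procollagen C-proteinase, rose by 0.63 (SE 0.12, adjusted p = 0.00879), and the other 6 tested, BMP1 among them, did not pass. In crosslinking, LOXL1, a lysyl oxidase, rose by 0.99 (SE 0.11, adjusted p = 0.00101), while LOX had 200, 210 and 162 counts against 189, 170 and 211 and a log2 fold change of -0.14 (adjusted p = 0.498). Called were 14.3% of the tested genes of propeptide removal and 20% of those of crosslinking, near the 17.3% of all genes.

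Among 9 tested partners of fibril assembly, 3 rose and 1 fell, or 44.4% called, against 17.3% of all genes. NID1, which links laminin to type IV collagen, rose by 0.89 (SE 0.21, edgeR adjusted p = 0.0205) and FBLN1, a matrix glycoprotein, by 0.58 (SE 0.09, adjusted p = 0.00290). SPARC, a collagen-binding matricellular protein, rose by 0.40 (SE 0.10, adjusted p = 0.0306). DCN, a small proteoglycan on fibril surfaces, had 117, 151 and 104 counts in shNTC+Dox against 68, 65 and 67 in shEHD1+Dox, a log2 fold change of -1.02 (SE 0.19, adjusted p = 0.00779). NID1 was lost without any one of the shEHD1+Dox replicates (adjusted p of 0.0562 to 0.0759), and SPARC without any library but shNTC+Dox replicate 3 (0.0708 to 0.103).

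Of the 11 tested collagen receptors, ITGA2, which with ITGB1 forms an integrin for collagen, rose from 492, 611 and 326 counts to 998, 737 and 914 (log2 fold change 0.77, SE 0.15, edgeR adjusted p = 0.00956). DDR2, a receptor tyrosine kinase activated by fibrillar collagen, fell from 1364, 1380 and 735 counts to 816, 690 and 828 (log2 fold change -0.69, SE 0.16, adjusted p = 0.0208). These 2 called receptors were 18.2% of those tested, near the 17.3% of all genes. In CPM, DDR2 was at 51.8, 49.8 and 32.9 in shNTC+Dox against 28.7, 28.2 and 26.75 in shEHD1+Dox, without overlap, and shNTC+Dox replicate 3 was the nearest control. Without that library the log2 fold change of DDR2 was -0.87, whereas the call was lost without any other library (edgeR adjusted p of 0.0594 to 0.0836). GP6 and LAIR1, receptors of blood cells, had no reads.

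Genes of collagen breakdown moved in both directions, with 4 of 9 tested higher and 2 lower. This was 66.7% called, against 17.3% of all genes. TIMP3, a matrix-bound inhibitor of metalloproteinases, had 492, 451 and 394 counts in shNTC+Dox against 116, 127 and 100 in shEHD1+Dox. Its log2 fold change of -2.08 (SE 0.18, edgeR adjusted p = 0.000267) was the largest fall on the list, and the groups were far apart. TIMP2, the inhibitor that also takes part in the activation of MMP2, fell by 0.90 on the log2 scale (SE 0.13, adjusted p = 0.00315). TIMP4, of the same family, rose from 49, 22 and 28 counts to 78, 87 and 126 (log2 fold change 1.41, SE 0.32, adjusted p = 0.0193), and TIMP1, the most read of the 4 and named after its value was seen, rose by 0.45 (adjusted p = 0.0107).

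MMP14, a membrane-bound collagenase, rose by 0.59 (SE 0.07, edgeR adjusted p = 0.00117). MMP9, a gelatinase, rose from 49, 40 and 13 counts to 84, 86 and 140 (log2 fold change 1.48, SE 0.38, adjusted p = 0.0286). The secreted collagenases MMP1 and MMP8 had no reads and MMP13 at most 3. The calls of TIMP4 and MMP9 depended on single libraries: TIMP4 was lost without shEHD1+Dox replicate 2 or 3 (adjusted p = 0.0594 and 0.0815), TIMP1 without shEHD1+Dox replicate 3 (0.0546), and MMP9 with the replicate number as a block (0.0721) and without shNTC+Dox replicate 2 or shEHD1+Dox replicate 1, 2 or 3 (0.0581 to 0.107).

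**Figure D5:**
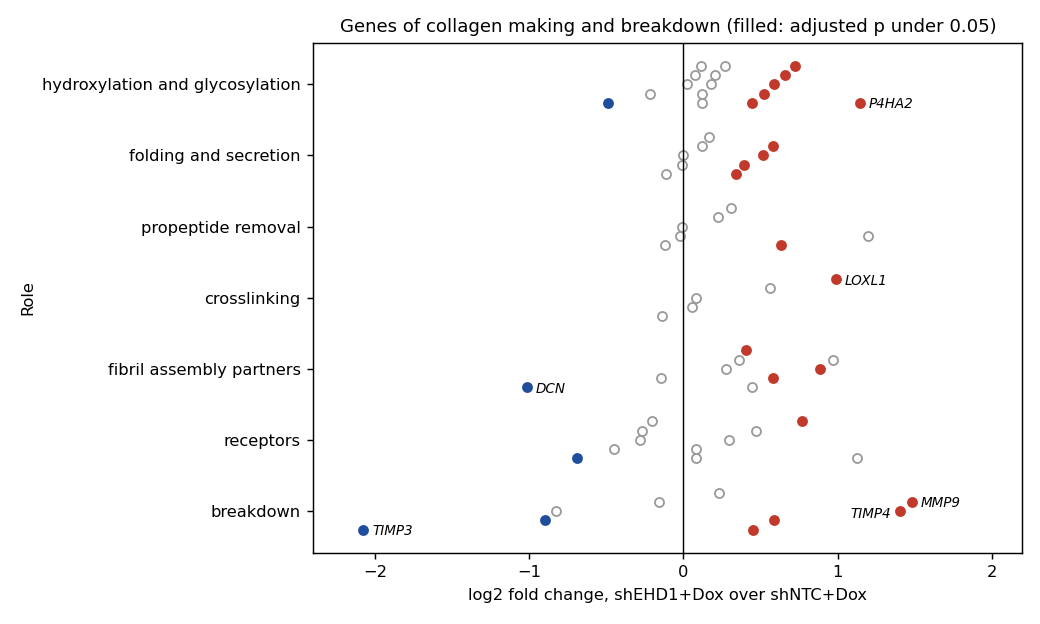
Log2 fold change (shEHD1+Dox over shNTC+Dox) of the 66 tested genes of collagen making and breakdown, by role, with 1 point per gene; filled points passed an edgeR adjusted p of 0.05 (red higher, blue lower). In the upper 2 roles 10 of the 11 filled points are higher, and TIMP3 at -2.08 and DCN at -1.02 lie farthest to the left.

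Since collagens are best known from fibroblasts, markers of that cell type were read in the same libraries. POSTN and TCF21 had no reads, and PDGFRA had 3 counts in 1 library and none in the others. The other 7 fibroblast markers listed were read. PDGFRB had 1474 to 3431 counts per library, FAP 390 to 857 and ACTA2 107 to 320. DCN had 65 to 151, TAGLN 63 to 139, LUM 26 to 73 and THY1 3 to 25. The summed level of the 10 fibroblast markers, carried mainly by PDGFRB, was 98.2 to 162 CPM in shNTC+Dox and 135 to 157 CPM in shEHD1+Dox, with overlap. The lowest of these sums was that of shNTC+Dox replicate 3, which was also the lowest control for COL3A1, COL5A1, COL5A3, COL13A1 and the type VI chains COL6A1, COL6A2 and COL6A3. The other called collagen genes went otherwise: among the controls COL16A1 was highest in replicate 3, at 174.9 CPM, and COL7A1 was lowest in replicate 2, at 4.88 CPM. Of the 7 fibroblast markers tested, DCN fell and none rose, where 8.75% of all genes fell and 8.59% rose. The endothelial markers PECAM1, CDH5 and VWF summed to at most 0.105 CPM in any library, and VWF was at 0. Epithelial markers summed to 27.2 to 31.5 CPM against 34.1 to 40.2 CPM, nearly all KRT18 and KRT8, with at most 5 counts of EPCAM and 2 of CDH1. Leukocyte markers summed to 3.34 to 5.63 CPM against 2.1 to 4.81 CPM, with CD3E at 0. The part of these markers in the collagen differences was not tested.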

How the data were processed

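RNA was sequenced from 6 libraries of TC71 cells, 3 of shNTC+Dox and 3 of shEHD1+Dox, made with an unstranded TruSeq kit and read as paired ends. The deposited values were raw counts per gene by the authors, without normalization, for 60676 genes. How the counts were made is not given in the sources used here: the published methods name hisat2, StringTie and hg38, while the submitters' processing notes name STAR 2.7.3a and DESeq2. Of the gene IDs, 99.5% were in GENCODE v44, which gave positions and exon lengths. Library totals were 22711235 to 30582187 counts, and replicates varied by 15% beyond counting noise (common BCV).

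Counts were scaled by TMM, and 16785 genes, those reaching 10 counts in 3 or more libraries, were tested with edgeR 4.0.16 (R 4.3.3; robust quasi-likelihood test, two-sided, Benjamini-Hochberg adjustment over all of them). The threshold for a call was an adjusted p of 0.05, with a change of at least 2-fold where stated. The SE is the log2 fold change divided by the root of F. Chain ratios were tested by exact two-sided permutation (scipy 1.17.1). The fit was tested on simulated data. Same-numbered libraries of the groups did not deviate together, so the replicate number was not used as a block.

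The collagen genes and all lists were chosen with earlier results of these data known. Named were EHD1, every collagen gene called, the 8 highest per length, their partner chains, and per role of the list of collagen making and breakdown up to 3 called rises and 3 called falls. The remaining collagen genes were added so that each is accounted for, and other genes outside this rule were named after their values were seen. Alternatives covered normalization by DESeq2 size factors, the filter, DESeq2 1.42.0 (Wald test), a replicate block, robust estimation, testing the 2-fold threshold within the model, overlapping genes, length, the denominator and each library left out. Leaving out libraries from the collagen sums was added after seeing the data.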

Additional observations from a re-analysis of the deposited data

How the results depend on the processing

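Across alternatives, 246 of 276 log2 fold changes of the 23 tested collagen genes kept their side of the threshold, 20 lost it and 10 gained it. COL6A3, COL3A1, COL7A1 and COL5A3 were called at an adjusted p under 0.05 under every alternative run for them, the 2-fold threshold tested within the model aside. The number of collagen genes higher by at least 2-fold (2) was 1 without a filter on low counts, 1 with the replicate block and 1 with the 2-fold threshold tested within the model, and 1 to 2 with a library left out (without shNTC+Dox replicate 3 the 2 were COL6A3 and COL2A1). The number lower by at least 2-fold (2) was 0 with the threshold within the model, and 2 in every fit that left out a library. With any fold, 7 collagen genes were higher by DESeq2's Wald test and 2 to 8 with a library left out, the 8 coming without shNTC+Dox replicate 3 and the 2 without shEHD1+Dox replicate 1. With any fold, 2 were lower with the replicate block and 2 to 4 with a library left out. Over all genes, 7 were higher and 32 lower with the 2-fold threshold within the model. With a library left out, 96 to 206 were higher and 192 to 255 lower by at least 2-fold, and 619 to 1882 higher and 681 to 1734 lower with any fold. With the replicate block 874 were higher and 892 lower with any fold. Of the genes of collagen making and breakdown, 14 to 20 were higher and 3 to 6 lower with a library left out. The ratio of the collagen sums ran from 1.18 to 1.29 with a library left out and was 1.28 with all counts as denominator. The cause of these shifts was not tested.

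The replicate numbers did not pair the libraries. Deviations from the group means, compared between libraries with the same number, had correlations across genes of 0.072, -0.0593 and -0.0448, and not every library correlated best with its own number. With the block, COL6A2, COL16A1 and COL13A1 were no longer called. Depth limits the 21 untested genes, for which no difference could be detected.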

Other observations

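The table also holds 9 rows whose symbol adds a suffix to that of a collagen gene. Of these, 8 had no read in any library, among them COL5A1-AS1, both COL18A1 antisense RNAs and the type VI pseudogene COL6A4P2. The other pseudogene of that type, COL6A4P1, had 0 counts in each shNTC+Dox library and 3, 0 and 4 counts in the shEHD1+Dox libraries. These counts are at or near the 3 counts that a count of 0 allows, and no fold is given.

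Other collagen genes also lie beside each other. COL19A1 and COL9A1 are 3571 bases apart on chromosome 6, on opposite strands, and had 881 to 2076 and 0 to 6 counts per library. COL6A5 and COL6A6 are 32330 bases apart on chromosome 3, on the same strand, and had 0 and at most 5 counts. COL4A1 and COL4A2, whose annotated spans overlap on chromosome 13, were both at 0.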
